A study of Homo sapiens with 6 samples.

Results

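Glycolysis splits glucose into pyruvate, and lactate dehydrogenase then turns pyruvate into lactate. When oxygen is low, the prolyl hydroxylases that mark the transcription factor HIF1A for destruction slow down, and HIF1A raises the transcription of glucose transporters, most glycolytic enzymes and genes such as *VEGFA* and *CA9*. Colorectal cancer cells in culture commonly run glycolysis at a high rate even with oxygen present. The genes described here are 35 members of these pathways, chosen by symbol. The kinds are glucose and lactate transporters, glycolytic enzymes and their regulators, *HIF1A*, oxygen sensors and HIF targets. They are 35 of the 63677 gene identifiers in the deposited count table, all 35 had at least 1 count, and 31 had counts enough to be tested.

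RNA was sequenced from LoVo, an established human colorectal cancer cell line, 48 h after transfection at 25 nM with a combination of both siRNAs against the long non-coding RNA *SNHG15* (3 libraries, *SNHG15* siRNA) or with a negative control siRNA (3 libraries, scramble). Both conditions used 1 cell line and the same growth medium and transfection reagent, and since the siRNAs were given together, the effect of each could not be told apart. The comparison addresses which transcripts differ when *SNHG15* is depleted. The replicates are described as biological, but nothing ties them to separate days, so p-values measure the spread among these libraries.

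Library totals ran from 3446922 counts (scramble replicate 3) to 10256710, and the 35 genes took from 0.565% to 0.727% of each. *SNHG15* itself was lower in all 3 siRNA libraries, by 1.74 on the log2 scale (SE 0.12, edgeR adjusted p = 2.62e-05). Replicates differed by more than counting noise, with chi-square values per degree of freedom between 4.05 and 18.5, and none was a copy of another. Of 10 colorectal epithelium markers, 4 (*CDX2*, *CDH1*, *KRT8* and *KRT18*) had counts enough to be tested and summed to between 102 and 117 CPM per library (CPM, a gene’s count relative to the scaled total of its library). *CDH1* had 7.52 ± 1.05 and 4.43 ± 1.19 CPM (SD, n = 3 each) in the scramble and siRNA libraries, which did not pass (edgeR adjusted p = 0.0945). *EPCAM*, *KRT19*, *KRT20*, *VIL1* and *CEACAM5* had at most 1 count in any library, and *LGALS4* at most 4, so most of the markers go against a label of colorectal epithelium. The strand setting and handling of multiply placed reads are not given, so low expression and lost reads cannot be told apart. Markers of fibroblasts, blood cells and endothelium summed to at most 1.25 CPM in any library, each list taken alone. In bulk RNA, fewer cells that express a gene and less of its RNA per cell cannot be told apart.

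A HIF dimer binds DNA at a short core, ACGTG or GCGTG. The promoter windows of *PGK1* and *LDHA* are printed because both genes are textbook HIF targets and *PGK1* passed the test while *LDHA* did not. They are RefSeq windows on GRCh38.p14, from 250 bases before to 50 after the start of transcription, and capitals mark ACGTG read on either strand (CACGT on the printed strand is ACGTG on the other, and CACGTG is a site on both).
PGK1, chrX:78103998-78104297, plus strand: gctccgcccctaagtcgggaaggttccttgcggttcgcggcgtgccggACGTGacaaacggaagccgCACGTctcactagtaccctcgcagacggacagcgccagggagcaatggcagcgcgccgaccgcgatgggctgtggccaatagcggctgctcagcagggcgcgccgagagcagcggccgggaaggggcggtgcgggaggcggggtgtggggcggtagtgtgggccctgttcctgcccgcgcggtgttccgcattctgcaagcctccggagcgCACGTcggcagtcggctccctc
LDHA, chr11:18394313-18394612, plus strand: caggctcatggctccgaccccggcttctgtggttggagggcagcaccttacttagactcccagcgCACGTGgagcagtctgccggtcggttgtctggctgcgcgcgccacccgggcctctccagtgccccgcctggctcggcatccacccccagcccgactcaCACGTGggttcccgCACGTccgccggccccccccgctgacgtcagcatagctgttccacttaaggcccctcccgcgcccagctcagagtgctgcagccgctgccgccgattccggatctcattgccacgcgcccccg

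The *PGK1* window held 3 matches to ACGTG and this *LDHA* window 5, with each of its 2 CACGTG counted once per strand. A second *LDHA* window, at chr11:18396101-18396400, held 0. Of 57 windows that RefSeq gave for 30 of the 35 genes, 40.4% held ACGTG, beside 26% of 13220 windows of tested genes and 21.4% of all 35116. GCGTG was in 38.6% of the windows of the 35 genes, fewer than the 50% of tested genes and near the 36.5% of all. CACGTG, which MYC and related factors also read and whose matches are counted again under ACGTG, was in 14% of the 57 windows, 9.61% of those of tested genes and 7.26% of all. These are matches of letters in a window, with several windows for some genes, and they do not show that a factor was bound.

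Of the 31 genes tested, 1 was changed at an adjusted p under 0.05 (edgeR quasi-likelihood test, adjusted over all 12507 genes tested), which is 3.23% beside 5.36% of all genes. That gene was *PGK1*, and it was lower. Among all genes, 3.13% were called higher and 2.23% lower. The median log2 fold change of the 31 was -0.03, beside 0.00 for all genes, with 15 fitted higher and 16 lower. An unadjusted p under 0.05 was reached by 6 of the 31 (3 higher, 3 lower), beside 22.5% of all genes (12% higher, 10.5% lower). The libraries of the 2 conditions did not overlap for 7 of the 31 (5 higher, 2 lower), beside 28.8% of all genes (14.7% higher, 14.1% lower). By none of these 3 counts did the pathway stand out from the rest of the genes. The plot of fitted changes shows *PGK1* apart from its neighbours in the pathway.

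**Figure D1:**
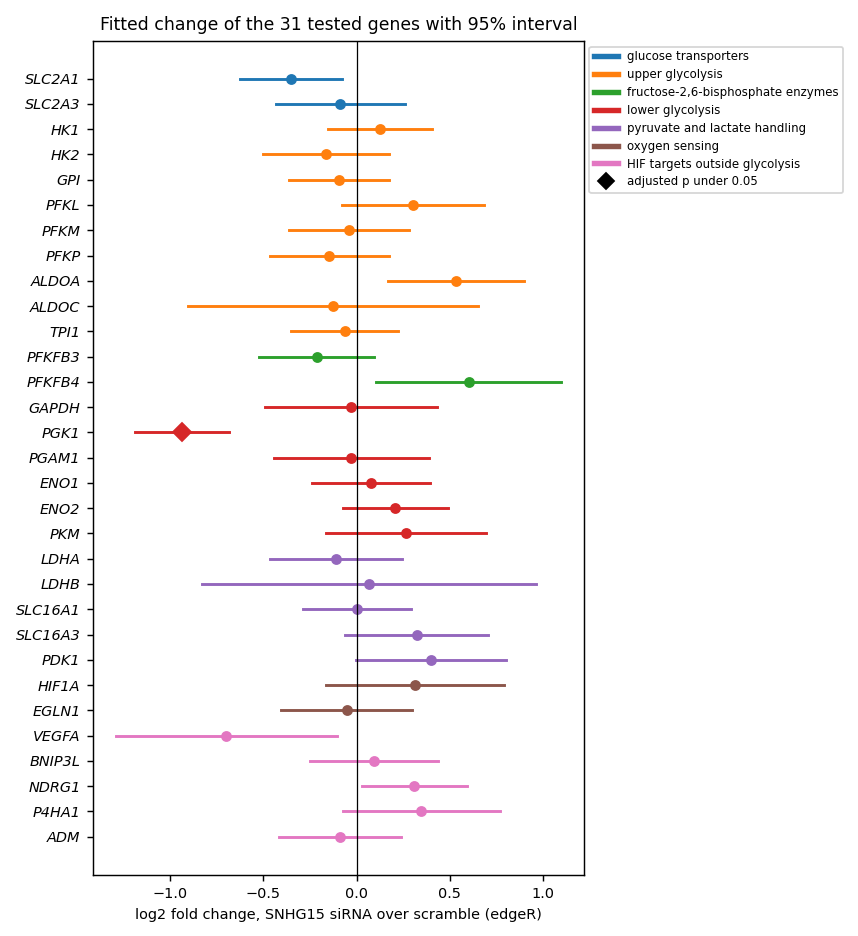
Log2 fold change of each of the 31 tested genes, *SNHG15* siRNA over scramble, from the edgeR fit, with its 95% interval, coloured by role and in pathway order from top to bottom. The diamond marks the 1 gene with an adjusted p under 0.05, *PGK1* at -0.93, and most other intervals include 0.

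*PGK1* (ENSG00000102144), phosphoglycerate kinase, makes the first ATP of the pathway, from 1,3-bisphosphoglycerate. GENCODE release 44 on GRCh37 places it at chrX:77166236-77384792, plus strand. Its level was 1109, 1140 and 1237 CPM in scramble replicates 1 to 3 and 565, 613 and 647 CPM in *SNHG15* siRNA replicates 1 to 3. No siRNA library came near a scramble library. The mean went from 1162 ± 66.5 to 608 ± 41.1 CPM (SD, n = 3 each), so that 52.3% remained, and the fitted log2 fold change was -0.93 (SE 0.12, 95% interval -1.19 to -0.68, edgeR adjusted p = 0.00196). By p it was the 13th of the 12507 genes. The raw counts behind these values were 9466, 11465 and 4090 in the scramble libraries against 4075, 4263 and 5506 in the siRNA libraries.

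*PGK1* was called in all 10 alternative analyses and with each of the 6 libraries left out in turn, where its log2 fold change stayed between -0.98 and -0.88. Its spread within conditions was small, 0.09 on the log2 scale beside a median of 0.16 over the 3854 genes at or above 50 CPM. At most 0.0491% of the counts of *PGK1* and its pseudogenes lay on the pseudogenes, and exons of *ATP7A* and of a processed pseudogene, both on the same strand, each covered 1.78% of its exonic bases.

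None of the other 30 tested genes was called. For 29 of the other 30, the 95% interval lay above the fitted value of *PGK1*, and the exception was *VEGFA*. The interval of *PGK1* itself ran from -1.19 to -0.68, and the lower ends of *ALDOC* (-0.90) and *LDHB* (-0.83) lay within it. The intervals of the other genes stayed within 1 on the log2 scale in either direction for 28 of the 30 and within 0.5 for 15. Of the summed CPM of 17 enzymes from hexokinase to lactate dehydrogenase, *PGK1* made up 19.6%, 19.4% and 21.01% in the scramble libraries against 8.75%, 11.4% and 14.3% in the siRNA libraries. The sum takes *GAPDH* at its own low count, without the counts listed on its pseudogenes. The other 16 enzymes summed to 4539, 4737 and 4649 CPM in the scramble libraries and to 5889, 4765 and 3862 CPM in the siRNA libraries, a range that includes all 3 scramble values.

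**Figure D2:**
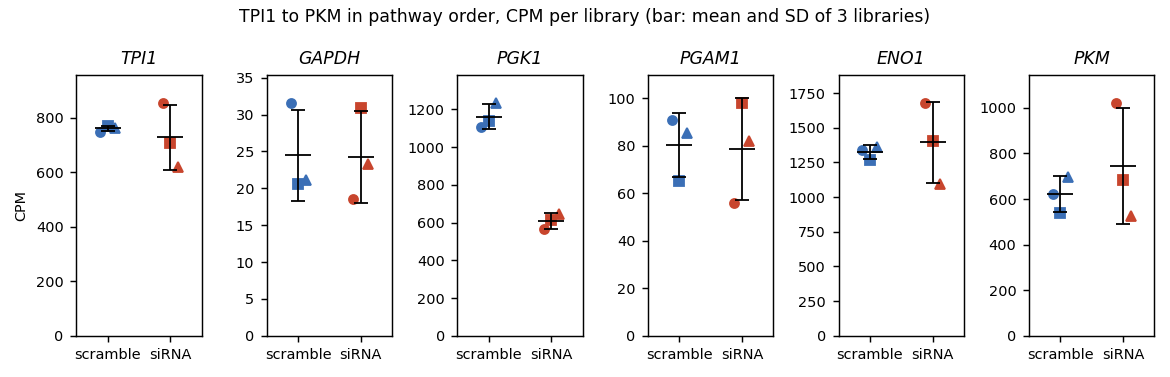
CPM per library (points) of 6 enzymes in pathway order from triose phosphate isomerase to pyruvate kinase, with the mean and SD of the 3 libraries of each condition as bars and every axis starting at 0. *PGK1* falls from 1162 to 608 CPM with no overlap, while the siRNA libraries of the other 5 enzymes overlap the scramble libraries.

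Neither of the glucose transporters passed the test. *SLC2A1*, the main glucose transporter of most cultured cells, had 130, 160 and 131 CPM in the scramble libraries and 105, 117 and 109 CPM in the siRNA libraries. The conditions did not overlap, but the log2 fold change of -0.35 (SE 0.13) did not pass (edgeR adjusted p = 0.123). *SLC2A3*, a transporter of higher affinity, overlapped between conditions at 66.6 ± 12.7 and 63.2 ± 9.06 CPM (SD, n = 3 each).

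In the upper, energy-spending phase, from hexokinase to triose phosphate isomerase, none of 9 tested genes was called by edgeR and 1 had an unadjusted p under 0.05. DESeq2 called none either. That 1 gene was *ALDOA*, the aldolase of muscle and most tumor cells, which had 152, 148 and 140 CPM in the scramble libraries and 279, 191 and 167 CPM in the siRNA libraries. The highest value came from siRNA replicate 1, and the conditions did not overlap. Its log2 fold change of 0.53 (SE 0.17) had an edgeR adjusted p of 0.0847. This became 0.0316 with siRNA replicate 3 left out and 0.0116 with no filter on low counts, where the SE was 0.14. Without siRNA replicate 1 the log2 fold change dropped to 0.28 (adjusted p = 0.139), and over the 6 libraries left out in turn the adjusted p reached 0.227, without scramble replicate 2. *ALDOC*, the brain form of aldolase, was low in both conditions, at 3.46 ± 0.638 and 3.27 ± 1.64 CPM (SD, n = 3 each). *HK1*, *HK2*, *GPI*, *PFKL*, *PFKM*, *PFKP* and *TPI1* overlapped between conditions, with log2 fold changes from -0.16 (*HK2*) to 0.30 (*PFKL*).

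Isozymes share a step but differ in regulation, so their shares of a step were compared after division by exon length. *HK2*, the hexokinase that HIF1A raises in tumors, made up 36.8%, 36.8% and 37.6% of *HK1* plus *HK2* in the scramble libraries against 27.2%, 33.4% and 36.6% in the siRNA libraries. The values did not overlap, but siRNA replicate 3 lay next to the scramble values, and with 3 against 3 libraries the two-sided exact permutation p could not go below 0.1, the value found (adjusted p = 0.5 over 5 shares). *PFKP*, the platelet form of phosphofructokinase, made up 54.0% ± 4.57 of the 3 phosphofructokinases in the scramble and 51.0% ± 0.795 in the siRNA libraries (SD, n = 3 each, exact permutation p = 0.4). The share of *SLC2A1* in the 2 glucose transporters was 69.9% ± 2.30 and 65.7% ± 3.56 (exact permutation p = 0.3). No share passed after adjustment.

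*PFKFB3* and *PFKFB4* make and break down fructose-2,6-bisphosphate, which activates phosphofructokinase. *PFKFB4* had 7.50, 6.27 and 4.84 CPM in the scramble libraries and 12.2, 8.06 and 8.93 CPM in the siRNA libraries. It was higher without overlap, with a log2 fold change of 0.60 (SE 0.23) that did not pass (edgeR adjusted p = 0.143). *PFKFB3*, the other enzyme of this kind, overlapped at 110 ± 14.7 and 94.3 ± 12.8 CPM (SD, n = 3 each).

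In the lower, ATP-yielding phase, 1 of 6 tested genes, *PGK1*, was called. *ENO1*, the common enolase, had 1323 ± 50.7 CPM in the scramble and 1393 ± 292 CPM in the siRNA libraries (SD, n = 3 each). *PKM*, pyruvate kinase, had 623, 541 and 698 CPM in the scramble and 1024, 684 and 527 CPM in the siRNA libraries, so that siRNA replicate 1 alone stood above the scramble range. Its log2 fold change of 0.26 became -0.04 without that library. *PGAM1*, phosphoglycerate mutase, and *ENO2*, the neuronal enolase, had log2 fold changes of -0.03 and 0.21 with overlapping libraries.

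*GAPDH*, the enzyme just before *PGK1* in the pathway, was the endogenous control of the study's qRT-PCR assays and is a gene with many pseudogene copies. Its own count was low for this enzyme, at 31.6, 20.6 and 21.2 CPM in the scramble libraries and 18.6, 30.9 and 23.3 CPM in the siRNA libraries. The conditions overlapped (24.5 ± 6.22 and 24.3 ± 6.23 CPM, SD, n = 3 each), and the fitted change was -0.03 on the log2 scale (SE 0.21, edgeR adjusted p = 0.955). Of the counts on *GAPDH* and its pseudogenes, between 89.3% and 92.1% in each library were listed on pseudogenes. Nearly all of these were on 1 processed copy, *GAPDHP40*, which lies at chr5:159377500-159378505 on the minus strand (GRCh37) and took from 86.9% to 90.3% of the family.

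Of 64 pseudogenes named for *GAPDH*, 31 had a count and 2 could be tested. *GAPDHP40* had 252 ± 25.4 and 230 ± 37.1 CPM (SD, n = 3 each), and its fitted change was -0.13 on the log2 scale (SE 0.14, edgeR adjusted p = 0.624). *GAPDHP65* had 1.38 ± 0.675 and 1.64 ± 0.759 CPM (SD, n = 3 each), a fitted change of 0.04 on the log2 scale (SE 0.44). With the family summed, the levels were 282 ± 32.5 and 260 ± 42.9 CPM (SD, n = 3 each), which overlapped as well. Whether the counts on the pseudogenes came from *GAPDH* RNA cannot be read from the table. A long non-coding RNA on the opposite strand also overlaps 17.6% of the exonic bases of *GAPDH*.

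**Figure D3:**
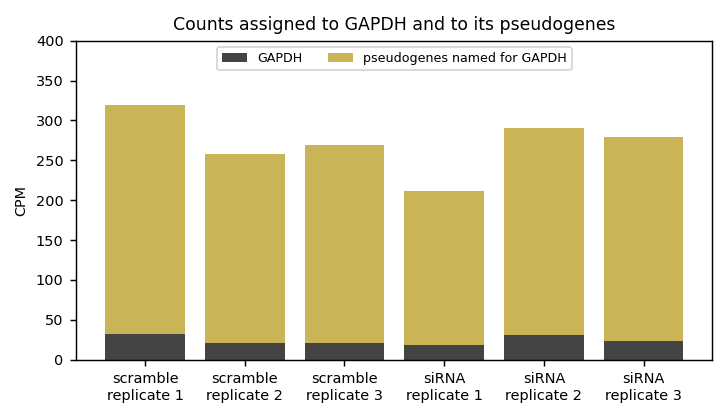
CPM assigned to *GAPDH* (dark) and to all pseudogenes named for it (light), stacked per library. In every library *GAPDH* itself holds between 7.87% and 10.7% of the bar, and the siRNA bars lie within or below the range of the scramble bars.

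*BNIP3*, with 42 named pseudogenes, had 1 to 4 counts per library on its pseudogenes, which was between 50% and 100% of the counts of its family. For the tested genes other than *GAPDH* the shares were small. The share on pseudogenes ran from 0.353% to 2.899% for *PGAM1* and from 0.359% to 1.62% for *LDHB*, and it stayed under 1% in every library for the other genes that were tested and had a named pseudogene. *LDHBP2*, the only other pseudogene tested, had 1.23 ± 0.544 and 1.70 ± 0.281 CPM (SD, n = 3 each).

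*LDHA* favours the making of lactate from pyruvate and *LDHB* the reverse. *LDHA* overlapped between conditions, at 415 ± 28.8 and 384 ± 99.1 CPM (SD, n = 3 each). *LDHB* had 147, 451 and 220 CPM in the scramble libraries and 462, 278 and 121 CPM in the siRNA libraries, so that the difference between replicates was far larger than that between conditions (log2 fold change 0.07, SE 0.41). Its spread within conditions, 0.90 on the log2 scale, ranked 4th of the 3854 genes at or above 50 CPM. The share of *LDHA* in the *LDHA* and *LDHB* total accordingly ran from 29.5% to 59.1% among the scramble libraries alone (exact permutation p = 0.9 between conditions).

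The 3 genes with a wider spread than *LDHB* were high and low in much the same libraries. They were picked after their values were seen. *MT-RNR1*, a mitochondrial ribosomal RNA, had 13.5, 114 and 24.2 CPM in the scramble libraries and 127, 80.0 and 13.2 CPM in the siRNA libraries. *RPS24*, a ribosomal protein gene, had 108, 329 and 158 CPM and then 355, 138 and 58.0 CPM. As a description over 6 libraries, with each condition's mean taken out, the correlation of *LDHB* was 0.987 with *MT-RNR1*, 0.982 with *RPS24* and 0.974 with the third, ENSG00000234450. All 6 values of each gene come from the same libraries, and 3853 genes were compared over these few points. The part of this pattern in the *LDHB* values was not tested.

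Neither of the lactate exporters passed the test, and both overlapped between conditions. *SLC16A1* had 78.9 ± 6.498 and 78.9 ± 9.51 CPM (SD, n = 3 each). *SLC16A3*, the exporter that HIF1A raises, had 122, 86.5 and 118 CPM in the scramble and 173, 115 and 119 CPM in the siRNA libraries, with siRNA replicate 1 the highest (log2 fold change 0.32, SE 0.18, edgeR adjusted p = 0.299). The log2 fold change of *SLC16A3* was 0.11 without that library, 0.18 without scramble replicate 2 and 0.15 with the GC offset. *PDK1*, a kinase that holds back the use of pyruvate in the mitochondrion, had 9.61, 9.55 and 9.98 CPM and then 10.4, 13.1 and 14.7 CPM. It was higher without overlap, though by a log2 fold change of 0.40 (SE 0.19) that did not pass (edgeR adjusted p = 0.225).

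**Figure D4:**
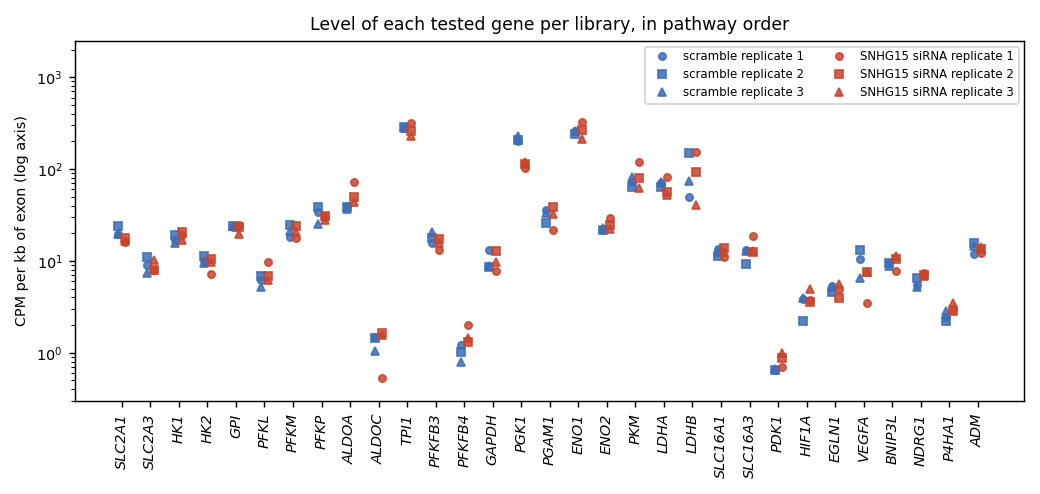
Level of each tested gene in each library as CPM per kb of exon (log axis), in pathway order, with scramble libraries in blue and *SNHG15* siRNA libraries in red. The 3 scramble points of *PGK1* lie above all its siRNA points, and the points of *LDHB* spread more widely within a condition than those of its neighbours.

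Per kb of exon, the order of levels in the scramble libraries was led by *TPI1* at 282 ± 4.06, *ENO1* at 254 ± 9.72 and *PGK1* at 214 ± 12.2 CPM per kb (SD, n = 3). These 3 did not overlap with each other. *LDHB* (91.4 ± 53.1), *PKM* (72.4 ± 9.19) and *LDHA* (68.9 ± 4.79 CPM per kb) came next and were not separated by their spread. In the siRNA libraries *TPI1* and *ENO1* were at 270 ± 44.4 and 267 ± 56.0 CPM per kb, and *PGK1* at 112 ± 7.56, within the range of *LDHB* (96.1 ± 57.1). The lowest tested gene per kb was *PDK1*, at 0.654 ± 0.0157 CPM per kb in the scramble libraries. This order depends on exon length, taken over all GENCODE exons of a gene (14845 bases for *PDK1* and 2700 for *TPI1*). It also depends on how reads were assigned to genes. *GAPDH* was at 10.2 ± 2.60 CPM per kb (SD, n = 3), with most counts of its family listed on pseudogenes. By mean CPM in the scramble libraries, *ENO1* (1323), *PGK1* (1162) and *TPI1* (761) led. The lowest by CPM was *ALDOC* (3.46), beside 9.71 for *PDK1*.

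Among *HIF1A* and the oxygen sensors, *HIF1A* had 20.04, 11.5 and 20.6 CPM in the scramble and 19.1, 18.4 and 25.5 CPM in the siRNA libraries. The conditions overlapped (log2 fold change 0.31, SE 0.22, edgeR adjusted p = 0.426), and HIF1A is governed mainly by the stability of its protein, which RNA does not show. *EGLN1*, the prolyl hydroxylase that acts at normal oxygen, overlapped at 27.1 ± 2.07 and 25.99 ± 4.60 CPM (SD, n = 3 each). *EGLN3*, the hydroxylase that HIF raises in turn, had 1, 1 and 0 counts in the scramble and 2, 3 and 2 counts in the siRNA libraries, too few to be tested.

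The HIF targets outside glycolysis did not move one way. *VEGFA*, the secreted factor that calls in blood vessels, had 153, 189 and 93.7 CPM in the scramble and 50.7, 110 and 110 CPM in the siRNA libraries. Scramble replicate 3 lay under siRNA replicates 2 and 3, and the log2 fold change of -0.70 (SE 0.27) did not pass (edgeR adjusted p = 0.153). With no filter on low counts it did (edgeR adjusted p = 6.01e-05), in a fit that gave an SE of 0.14 on the same counts. DESeq2 gave *VEGFA* an adjusted p of 0.436. With 1 library left out its log2 fold change lay between -0.93, without scramble replicate 3, and -0.42, without siRNA replicate 1, it was -0.46 without scramble replicate 2, and the adjusted p lay between 0.101 and 0.482. *NDRG1*, a gene that is induced by hypoxia and stress, was higher without overlap, at 65.4, 78.8 and 62.0 and then 88.6, 85.01 and 82.9 CPM (log2 fold change 0.31, SE 0.13, edgeR adjusted p = 0.182). *P4HA1*, a collagen prolyl hydroxylase, also did not overlap, at 7.75 ± 0.960 and 9.62 ± 1.06 CPM (SD, n = 3 each, edgeR adjusted p = 0.314).

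*BNIP3L*, which marks mitochondria for removal, and *ADM*, which encodes the vessel-widening peptide adrenomedullin, overlapped between conditions, with log2 fold changes of 0.09 and -0.09. The other 3 HIF targets outside glycolysis had too few counts to be tested. *CA9*, a carbonic anhydrase used as a marker of hypoxia, had 2, 8 and 0 counts in the scramble and 0, 0 and 2 counts in the siRNA libraries, and the exons of *ARHGEF39* cover 35.7% of its exonic bases on the other strand. *BNIP3*, the relative of *BNIP3L*, had 1, 0 and 0 and then 1, 0 and 1 counts. *ANKRD37*, another gene induced by HIF, had 7, 7 and 0 and then 2, 5 and 6 counts, and *UFSP2* covers 40.3% of its exonic bases on the other strand. At 3 counts, the floor of the 6 libraries lay between 0.292 and 0.870 CPM, and *CA9* and *ANKRD37* rose above it in some libraries. The counts of *EGLN3* did not overlap between conditions but were all at or under this floor. With no filter on low counts, edgeR called none of these 4 genes.

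The 3 genes whose pattern was nearest to that of *VEGFA*, of 3853 genes at or above 50 CPM, were *ECPAS*, *ASNS* and *LMO4*. With each condition's mean taken out, their correlations with *VEGFA* over the 6 libraries were 0.997 each, with the same limits as for *LDHB*. *ASNS*, asparagine synthetase, had 367, 511 and 213 CPM in the scramble and 136, 356 and 380 CPM in the siRNA libraries. *LMO4*, a transcriptional cofactor, had 115, 136 and 89.2 CPM and then 62.8, 103 and 101 CPM, while *ECPAS*, a proteasome adaptor, varied little, between 136 and 187 CPM. In each of the 3 genes and in *VEGFA*, scramble replicate 3 and siRNA replicate 1 were the lowest of their conditions. The part of this pattern in the *VEGFA* difference was not tested.

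**Figure D5:**
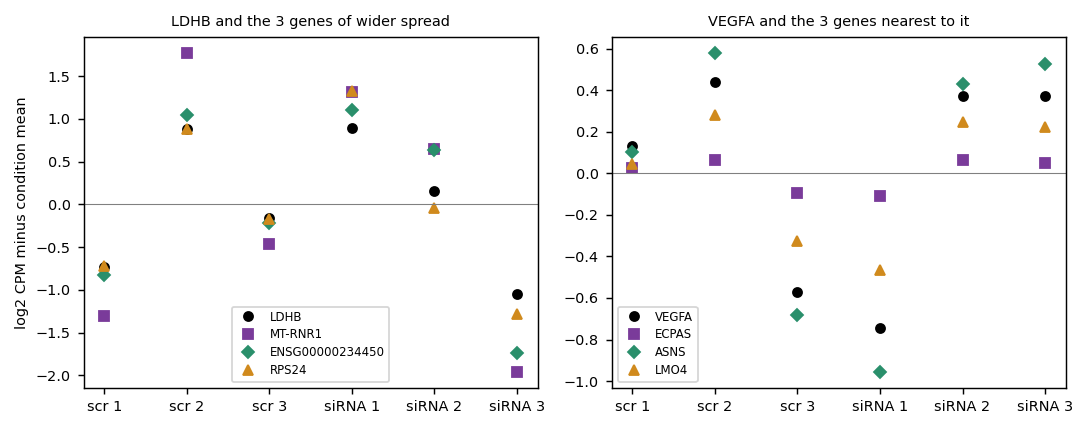
Log2 CPM minus the mean of its condition in each library (scr, scramble) for *LDHB* with *MT-RNR1*, ENSG00000234450 and *RPS24* (left) and for *VEGFA* with *ECPAS*, *ASNS* and *LMO4* (right). Scramble replicate 2 and siRNA replicate 1 are high on the left, and scramble replicate 3 and siRNA replicate 1 are low on the right.

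*SNHG15* siRNA replicate 1 was the library farthest from its condition's mean for 20 of the 31 genes, 9 times high and 11 times low, which is 64.5% beside 52.9% of all tested genes. Without it, 812 genes were called in all, and *PGK1* was still the only one of the 31.

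Other genes of the same pathways were counted from 4 lists. Of 27 tested of 42 other genes of glycolysis, gluconeogenesis and pyruvate use, 2 were called, both higher, and the median log2 fold change was 0.07. *LDHD*, a mitochondrial lactate dehydrogenase for D-lactate, had 1.64, 0.995 and 1.21 CPM in the scramble and 4.02, 4.60 and 3.99 CPM in the siRNA libraries (log2 fold change 1.70, SE 0.31, edgeR adjusted p = 0.00875). The raw counts of *LDHD* were low, at 14, 10 and 4 in the scramble and 29, 32 and 34 in the siRNA libraries. *MPC1*, a subunit of the carrier that brings pyruvate into the mitochondrion, had 49.9, 46.1 and 53.2 CPM and then 66.8, 76.7 and 81.4 CPM (log2 fold change 0.60, SE 0.13, edgeR adjusted p = 0.0220). Neither gene overlapped between conditions. With 1 library left out, the adjusted p of *MPC1* rose above 0.05 in 5 of 6 cases, reaching 0.109 without scramble replicate 2, and that of *LDHD* in 1, at 0.0752 without the same library.

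Of 38 other HIF targets, 27 were tested and 2 called, 1 in each direction, with a median log2 fold change of 0.05. *BHLHE41*, a repressor that HIF induces, was higher, at 5.16, 7.06 and 6.05 and then 10.1, 10.8 and 15.6 CPM (log2 fold change 1.00, SE 0.23, edgeR adjusted p = 0.0243). *ZNF395*, a hypoxia-induced factor, was lower, at 27.1, 33.4 and 24.5 and then 18.2, 16.8 and 20.9 CPM (log2 fold change -0.62, SE 0.16, edgeR adjusted p = 0.0460). The adjusted p of *BHLHE41* was above 0.05 with 1 library left out in 4 of 6 cases, at most 0.122, and that of *ZNF395* likewise in 4, at most 0.225. *ZNF395* also missed the threshold with upper-quartile factors (adjusted p = 0.0542), at least 10 counts in every library (0.0573), the replicate block (0.0863) and the block with a GC offset (0.0533).

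Of 14 pentose phosphate and glycogen genes, all tested, edgeR and DESeq2 called none and 2 had an unadjusted p under 0.05, with a median log2 fold change of -0.10. Of 14 other regulators of the HIF pathway, 13 were tested and edgeR and DESeq2 called none, with 1 at an unadjusted p under 0.05 and a median of -0.02. The shares called, 2 of 27 in each of the first lists and none in the others, are near the 5.36% of all genes.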

How the data were processed

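The authors deposited counts of reads per gene, not normalized, for the 6 libraries in 1 table (TruSeq Stranded mRNA, 75 bp paired-end). The paper's methods name bowtie2 and hg19, while the submitters' processing notes name STAR, featureCounts and hg19. The annotation, strand setting and handling of multiply placed reads are not given in the sources used here, so counts of genes with pseudogenes or overlapping genes are uncertain. The floors cover counting error only, and the intervals of fold changes hold the spread between replicates.

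Identifiers were matched to GENCODE release 44 on GRCh37. Genes were filtered with filterByExpr (edgeR 4.0.16, R 4.3.3; minimum count 10, total 15), given TMM factors and compared, siRNA against scramble, by the quasi-likelihood test, and p-values were adjusted by Benjamini-Hochberg over the 12507 genes tested. CPM were computed from the counts and TMM factors. SE was the fold change over the root of its F value. Shares were compared with the exact permutation test. Promoter windows were RefSeq's. Short matches to the siRNAs in other transcripts are not reported here. Named genes were all 35, *SNHG15*, the called genes of 4 further lists and every tested pseudogene. Any other gene was picked after its values were seen. The 35 genes and the lists were chosen with earlier results of these data known.

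Tested on simulated data, for this comparison with 12507 genes, edgeR recovered 148 of 200 genes changed by 1 on the log2 scale, with 14 false calls. Alternatives were DESeq2 1.42.0, RLE and upper-quartile factors, 2 other filters, protein-coding genes only, a GC offset, a replicate block, alone or with that offset, pseudogene counts added to parents, and leaving out each library.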

Additional observations from a re-analysis of the deposited data

How the results depend on the processing

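Scramble replicate 3 was counted least deeply, and genes under about 1 CPM could not be compared. The direction and call of *PGK1* held under all 10 alternatives and with each library left out. With no filter on low counts, 3 of the 35 genes were called (*PGK1*, *ALDOA* and *VEGFA*), 1312 genes in all and 5 of the other glycolysis genes. In that fit the SE of *LDHB* was 0.14, beside 0.41 in the main fit, so the unfiltered SE held less of the spread between replicates. With at least 10 counts in every library, 1 gene was called in the list of other glycolysis genes, and *LDHD*, with 4 counts in scramble replicate 3, was not tested. The count of other HIF targets called became 1, with the call of *ZNF395* lost, with upper-quartile factors, with at least 10 counts in every library, with the replicate number as a block, and with the block and a GC offset. The GC offset moved the count over all genes from 671 to 983, and the offset with the block gave 823.

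Replicate numbers did not clearly pair the libraries, though correlations of deviations from means of 3 libraries cannot exclude a pairing. The correlation of the deviations of same-numbered libraries was -0.07, 0.15 and -0.04 for numbers 1 to 3, and not every library correlated best with its own number. The replicate block moved the count over all genes to 543, kept *PGK1* as the only one of the 35 called, and gave log2 fold changes of -0.0012 for *LDHB* and -0.0021 for *SLC16A1*.

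With 1 library left out, the count over all genes ran from 139, with scramble replicate 2 omitted, to 812, with siRNA replicate 1 omitted. It was 199 without scramble replicate 1, 266 without scramble replicate 3 and 356 without siRNA replicate 2. The count among the 35 genes ran from 1 to 2, and the counts of other glycolysis genes and of other HIF targets each from 0 to 2. The median log2 fold change of the tested genes ran from -0.040 to 0.061. The log2 fold change of *GAPDH* ran from -0.23 to 0.22, and it was 0.0092 with upper-quartile factors, which also gave 0.0067 for *PGAM1*. For *SLC16A1* it was -0.0078 with DESeq2 and -0.022 with no filter. In genes whose direction turned with 1 library left out, none of them called, the log2 fold change ran from -0.21 to 0.068 for *SLC2A3*, -0.17 to 0.0028 for *GPI*, -0.15 to 0.091 for *PFKM*, -0.35 to 0.22 for *ALDOC*, -0.20 to 0.045 for *TPI1*, -0.22 to 0.17 for *PGAM1*, -0.085 to 0.23 for *ENO1*, -0.036 to 0.47 for *PKM*, -0.34 to 0.016 for *LDHA*, -0.46 to 0.66 for *LDHB*, -0.081 to 0.086 for *SLC16A1*, -0.17 to 0.080 for *EGLN1*, -0.020 to 0.23 for *BNIP3L* and -0.20 to 0.020 for *ADM*. The difference in the *LDHA* share ran from -11.3 to 3.47 percentage points, and that of *BNIP3* turned to -0.577 points with pseudogene counts added. The cause of these changes was not tested.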
